A study of Mus musculus with 6 samples.

Results

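Cxcl5, Ppbp and Ackr1 are 3 of the 149 genes in the authors' deposited table, and were taken from it by their symbols. Cxcl5 and Ppbp encode chemokines that attract neutrophils, and Ackr1 encodes a venular receptor that binds such chemokines. The libraries came from male C57BL/6 mice of wt genotype. All had myocardial ischaemia-reperfusion (IR), with the left anterior descending coronary artery tied for 45 min through an opened chest and then released for 24 h. One group had this procedure alone (IR), and the other also drank water with 0.12% trimethylamine N-oxide for 4 weeks before it and during it (TMAO+IR). Trimethylamine N-oxide (TMAO) is formed in the liver from trimethylamine that gut bacteria release from choline and carnitine. Each group had 3 libraries of messenger RNA from the injured region of the heart, and hearts without ischaemia-reperfusion were not analysed here. The labels give no age for the mice.

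Chemokines are small secreted proteins that guide leukocytes along gradients. CXC chemokines of the neutrophil-attracting kind act on the receptor CXCR2 and are among the signals that bring neutrophils into reperfused heart muscle. CXCL5 is made by epithelial, stromal and vascular cells after stimulation by IL-17, IL-1 or TNF. Ppbp encodes pro-platelet basic protein, a precursor stored in platelet granules that is cut to the neutrophil-attracting chemokine CXCL7. ACKR1 belongs to the atypical chemokine receptors, which bind chemokines without signalling through G proteins. On the endothelium of venules it carries chemokines across the vessel wall and presents them, and on red blood cells it holds them as a sink.

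The recovered depth was 18370997 to 22442237 fragments per library, and the 149 genes held 0.33% to 1.08% of them. The table holds only genes that the authors called changed between these groups, so the difference between the groups chose the genes, and it is described below without a test. In the authors' deposited table, 149 of an implied 12721 tested genes were listed (1.17%), 122 of them higher in TMAO+IR (0.959%). By the authors' values no listed gene changed by less than 2-fold, and the table's p-values and FDR imply that about 570 or more genes had an FDR no larger than the highest listed, 0.0487. A gene outside the table may thus have passed that FDR with a difference under 2-fold. None of the 11 cardiomyocyte markers is among the listed genes, so the tissue label could not be checked against them. The labels do not say that the libraries of a group came from separate animals, so the spread between them may be technical.

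Cxcl5 had the highest level of the 3 genes. It stood at 10.19, 15.54 and 8.66 FPKM in IR replicates 1, 2 and 3, and at 28.11, 27.21 and 19.57 FPKM in TMAO+IR replicates 1, 2 and 3. The groups did not overlap, with IR replicate 2 nearest to the other group from below and TMAO+IR replicate 3 nearest from above. FPKM, the fragments per kilobase of transcript scaled to library size, is a level per length and allows these genes to be set against each other. The means were 11.5 ± 3.61 FPKM in IR and 25.0 ± 4.69 in TMAO+IR (SD, n = 3 each). On counts divided by the recovered library size (CPM, scaled to 1000000 fragments), the difference in log2(CPM + 0.1) was 1.15 ± 0.30 (SE), a 2.21-fold higher level. The authors' deposited table gives a log2 fold change of 1.12 from mean FPKM, with a p of 1.15e-05 and an adjusted p (FDR) of 0.00227. These are the values that placed Cxcl5 in the table, at most about the 64th smallest p of all genes tested. In bulk tissue, more cells of a type that makes the transcript and more transcript per cell cannot be told apart.

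Ppbp was the intermediate gene. Its levels were 3.48, 4.16 and 2.55 FPKM in the IR replicates and 9.09, 8.70 and 5.41 FPKM in the TMAO+IR replicates, in order of number. Again the groups did not overlap, and TMAO+IR replicate 3 lay well below its group. The means were 3.40 ± 0.81 FPKM in IR and 7.73 ± 2.02 in TMAO+IR (SD, n = 3 each). The difference in log2(CPM + 0.1) was 1.16 ± 0.31 (SE), or 2.23-fold. In the authors' deposited table the log2 fold change of Ppbp was 1.19, with a p of 7.24e-05 and an FDR of 0.00668.

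Ackr1 was the lowest of the 3. It was at 0.88, 0.80 and 0.81 FPKM in IR replicates 1, 2 and 3, which lay close together, and at 1.94, 2.58 and 1.83 FPKM in TMAO+IR replicates 1, 2 and 3. Its lowest TMAO+IR library was 2.08 times its highest IR library in CPM, against 1.26 times for Cxcl5 and 1.30 times for Ppbp. The means were 0.83 ± 0.04 FPKM in IR and 2.12 ± 0.41 in TMAO+IR (SD, n = 3 each). The difference in log2(CPM + 0.1) was 1.25 ± 0.15 (SE), or 2.39-fold. In the authors' deposited table Ackr1 had a log2 fold change of 1.35, a p of 0.000583 and an FDR of 0.0218, which gave it the 121st smallest FDR of the 149 genes.

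**Figure D1:**
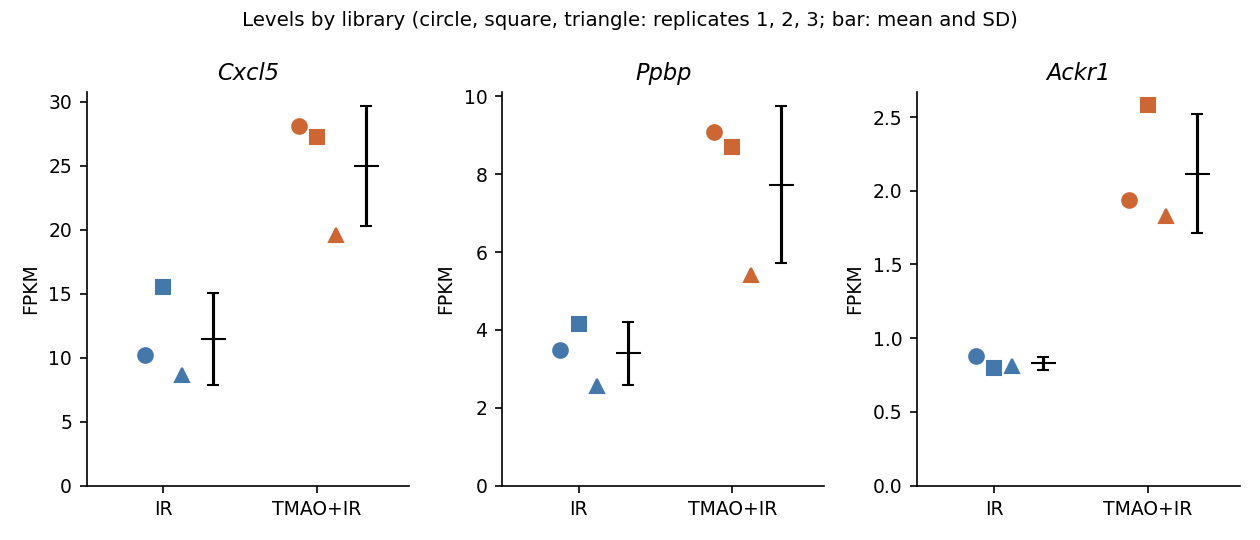
Level in FPKM (vertical axes, each from 0) of Cxcl5, Ppbp and Ackr1 in the 3 IR and 3 TMAO+IR libraries, with 1 point per library and the group mean and SD beside them. All TMAO+IR points lie above all IR points in each panel, and the IR points of Ackr1 lie within 0.80 to 0.88 FPKM.

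The order of the levels was Cxcl5, Ppbp, Ackr1 in each of the 6 libraries. Cxcl5 was 2.93 to 3.74 times as high as Ppbp in FPKM, and Ppbp 2.96 to 5.20 times as high as Ackr1. Among the 149 listed genes Cxcl5 was 26th, Ppbp 59th and Ackr1 107th by mean FPKM. No filter on low values was applied, and all 3 have counts in each library.

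The 3 genes rest on very different numbers of reads. Cxcl5 had 306 to 538 counts in the IR libraries and 642 to 923 in the TMAO+IR libraries. Ppbp had 62 to 99 and 122 to 203 counts. Ackr1 had 21, 20 and 21 counts in IR replicates 1, 2 and 3, and 41, 64 and 44 in the TMAO+IR replicates. Divided by library size, the exact 95% Poisson intervals of Ackr1 reached at most 1.55 CPM in IR (replicate 1) and began at 1.54 CPM or above in TMAO+IR (replicate 3). Of the 9 pairs of an IR and a TMAO+IR library, this 1 pair had overlapping intervals, as did 1 pair for Ppbp and 0 for Cxcl5. The intervals cover counting error only. Counting error alone gives an SE of 0.22 on the log2 difference of Ackr1, larger than the 0.15 from the replicate spread, so the latter is too small as an error of Ackr1. For Cxcl5 the counting SE was 0.05 and for Ppbp 0.11, below their replicate SE of 0.30 and 0.31.

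All 3 genes were higher in TMAO+IR, as were 122 of the 149 listed genes (81.9%). For all 3 the TMAO+IR libraries lay above the IR libraries, as for 120 of the listed genes (80.5%), and groups did not overlap in either direction in 145 (97.3%). Direction and separation therefore do not set these 3 genes apart from the list. By size of the log2 difference they ranked 50th (Ackr1), 76th (Ppbp) and 79th (Cxcl5) among the 122 higher genes, whose median was 1.20 and whose range was 0.73 to 3.78. The pooled SD of log2(CPM + 0.1) within groups was 0.37 for Cxcl5 and 0.38 for Ppbp, against a median of 0.41 over the 149 genes. That of Ackr1 was 0.19, less than counting error alone gives at its counts, and is not read as a smaller spread.

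**Figure D2:**
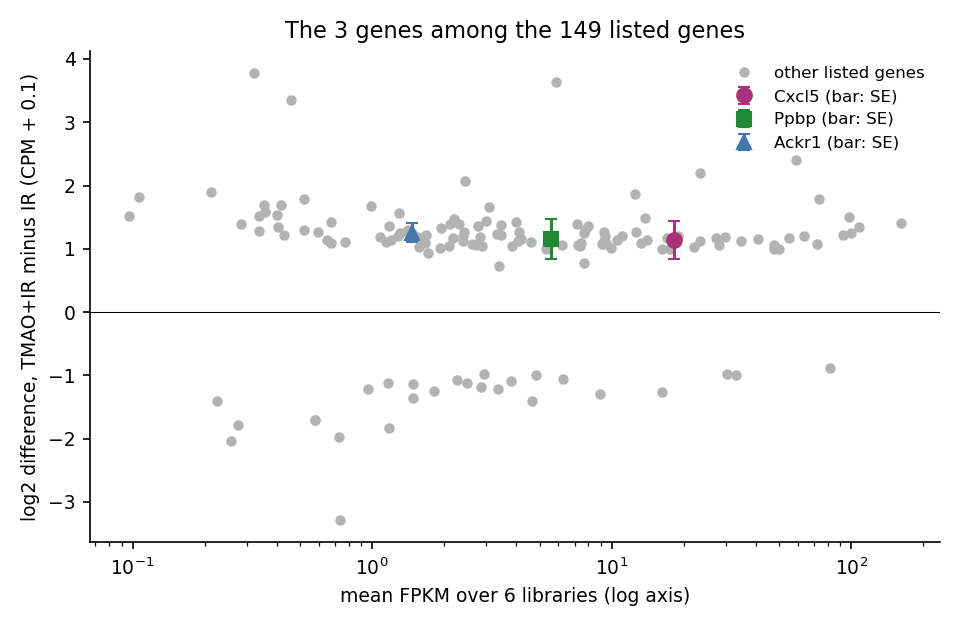
Difference between groups in log2(CPM + 0.1), TMAO+IR minus IR (vertical axis), against mean FPKM over the 6 libraries (horizontal log axis), with 1 point per listed gene and SE bars on Cxcl5, Ppbp and Ackr1. The 3 genes lie at 1.15, 1.16 and 1.25, inside the band of the other higher genes.

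The scaling bears on the size of all 3 differences. TMM scaling computed from the listed genes shifted the median log2 difference of all 149 by -1.02. Under it, Cxcl5 stood at 0.11, Ppbp at 0.14 and Ackr1 at 0.28, and the groups overlapped for each of them. TMM takes most genes of a table as equal between groups, whereas this table holds only genes called changed. Taking the shift of the median out again gave 1.13, 1.16 and 1.30, which returns the differences in CPM nearly by construction. These values do not show that the differences withstand TMM scaling. For Ackr1 the pseudocount mattered as well, since 1 CPM in place of 0.1 lies at the level of its IR libraries and gave 0.81. Leaving out any 1 library gave log2 differences of 0.97 to 1.39 for Cxcl5, 0.97 to 1.39 for Ppbp and 1.11 to 1.35 for Ackr1. Only these sizes could change, since leaving out a library cannot reverse groups that lie apart or make them overlap.

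**Figure D3:**
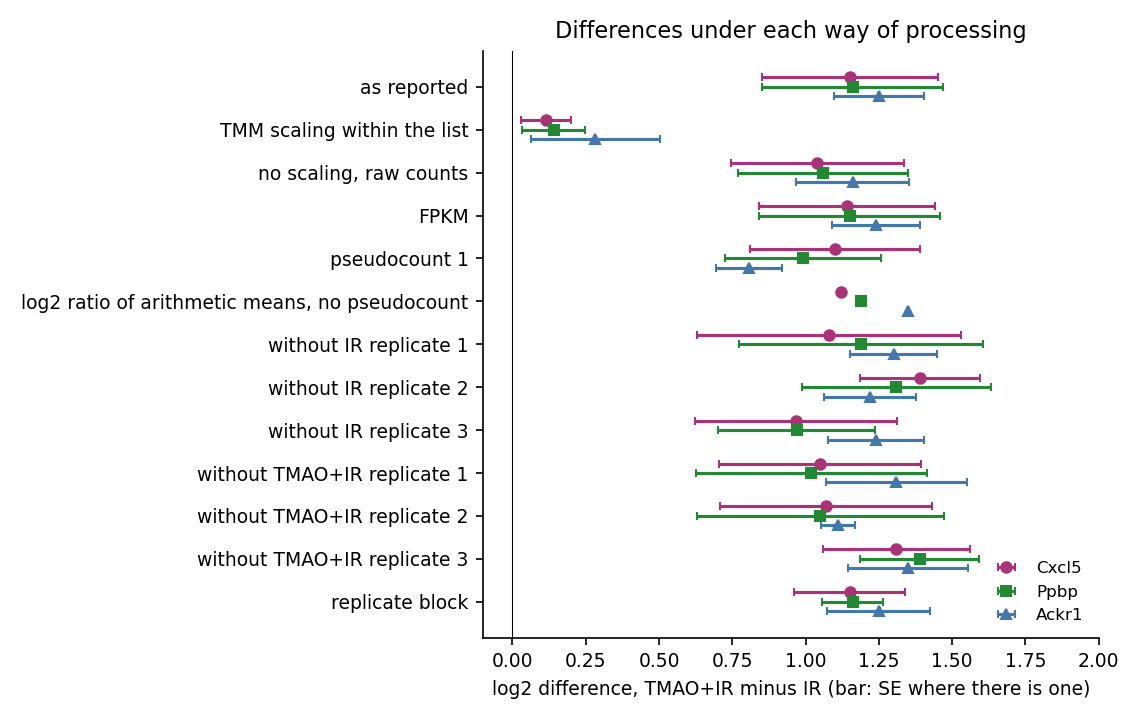
Difference in log2 between TMAO+IR and IR (horizontal axis, SE bars where there is one) for Cxcl5, Ppbp and Ackr1 under each way of processing (vertical axis). All values lie above 0, and TMM scaling within the list gave the values nearest to 0, at 0.11 to 0.28.

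Cxcl5 and Ppbp varied together over the libraries. Their count ratio was 4.26, 5.43 and 4.94 in IR replicates 1, 2 and 3, and 4.50, 4.55 and 5.26 in the TMAO+IR replicates. The group means of the ratio, 4.88 ± 0.59 in IR and 4.77 ± 0.43 in TMAO+IR (SD, n = 3 each), differed by less than its spread. The highest ratio was 1.28 times the lowest, while the CPM of Cxcl5 itself spanned 3.25 times and that of Ppbp 3.57 times. Of 145 listed genes with counts in all libraries, 6 kept their ratio to Cxcl5 as narrow as Ppbp did or narrower, Ppbp included, and the median gene spanned 1.93 times. A ratio to Cxcl5 this narrow was thus found for a few other listed genes too. Cxcl5 and Ppbp were both selected as changed and rose by similar amounts, so a ratio narrower than either span was fixed in part by the selection. The median also covers listed genes that were lower in TMAO+IR, whose ratio to Cxcl5 is wide for that reason.

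Within the groups, Cxcl5 and Ppbp deviated to the same side in all libraries except IR replicate 1. There Cxcl5 stood at -0.12 and Ppbp at 0.06 from the group mean on the log2 scale. In IR replicate 2, Cxcl5 stood 0.48 and Ppbp 0.31 above its own group mean on the log2 scale, and Ackr1 0.06 below. In TMAO+IR replicate 1 Cxcl5 was 0.19 and Ppbp 0.27 above the group mean, where Ackr1 was 0.11 below. Counting error alone has an SD of 0.32 at the 20 counts and 0.23 at the 41 counts of Ackr1 in these libraries, larger than its deviations there. In TMAO+IR replicate 3 all 3 lay below the group mean, with deviations of -0.33 for Cxcl5, -0.47 for Ppbp and -0.18 for Ackr1. That of Ackr1 is again smaller than its counting SD, 0.22 at 44 counts. The median of the 122 higher genes showed the shape of the chemokines, with 0.33 in IR replicate 2, -0.33 in IR replicate 3 and -0.30 in TMAO+IR replicate 3. The part of this list-wide shape in the values of Cxcl5 and Ppbp was not tested.

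**Figure D4:**
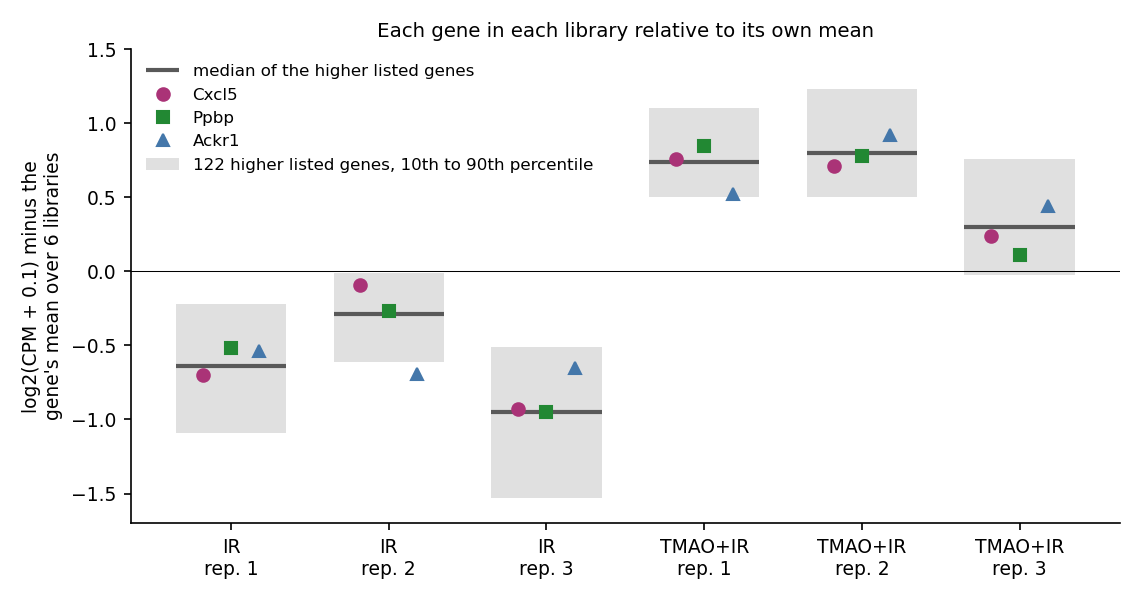
Log2(CPM + 0.1) of Cxcl5, Ppbp and Ackr1 in each library relative to the gene's own mean over the 6 libraries (vertical axis), with grey bars from the 10th to the 90th percentile and lines at the median of the 122 higher listed genes. Cxcl5 and Ppbp sit near the median in IR replicate 3, at -0.93 and -0.95, where Ackr1 sits at -0.65.

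The listed genes with the profiles nearest to each member were found by the root mean square difference of centred log2(CPM + 0.1) over the 6 libraries. For Cxcl5 these were Klf6, a zinc finger transcription factor (0.098), Pde4b, a phosphodiesterase that degrades cAMP (0.10), and Adamts1, a secreted metalloproteinase (0.11). For Ppbp they were Klf6 again (0.050), Jak2, a tyrosine kinase of cytokine receptors (0.068), and Herc6, an interferon-induced member of the HERC family (0.099). Cxcl5 and Ppbp were each other's 7th nearest of 148 genes, at 0.13, where the median distance was 0.32 from either. The nearest to Ackr1 were the cytokine gene Il6 (0.15), Mcoln2, an endolysosomal cation channel gene (0.17), and Glis3, a zinc finger transcription factor (0.18). Counting error of Ackr1 alone has an SD of 0.18 to 0.32 per library on the log2 scale, as large as these distances or larger. The order of its neighbours is therefore uncertain. From Ackr1, Ppbp was the 24th and Cxcl5 the 42nd nearest.

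Il6 stood at 21.3 ± 2.59 FPKM in IR and 48.0 ± 4.45 in TMAO+IR (SD, n = 3 each). Its log2 difference was 1.12 ± 0.13 (SE). Klf6 went from 25.0 ± 8.95 to 56.6 ± 16.8 FPKM (SD, n = 3 each), a log2 difference of 1.16 ± 0.34 (SE). Since every listed gene was selected on the same difference, likeness between groups was fixed in part by the selection. With each group centred on its own mean, Ppbp was the 14th nearest to Cxcl5 and Cxcl5 the 8th nearest to Ppbp. From Cxcl5, Pde4b was then 2nd, Klf6 4th and Adamts1 5th. From Ppbp, Klf6 remained the nearest and Jak2 2nd, while Herc6 was 5th. From Ackr1, Il6 was 3rd, Mcoln2 6th and Glis3 7th.

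Cxcl5 and Ppbp are next-door genes. On GRCm38, Cxcl5 (ENSMUSG00000029371) lies on the plus strand of chromosome 5 at 90759360 to 90761624, and Ppbp (ENSMUSG00000029372) on the same strand at 90768518 to 90770063. The gap between them is 6.89 kb and holds no annotated gene. They open a cluster of 7 CXC chemokine genes over 146.6 kb, which goes on with Pf4, Cxcl3, Cxcl15, Cxcl1 and Cxcl2. Pf4 encodes platelet factor 4, and Cxcl1, Cxcl2 and Cxcl3 encode neutrophil attractants that also act on CXCR2. Of these 7 genes 2 are listed, and the values of the other 5 were not analysed here. In the whole list, 3 pairs of next protein-coding genes lie within 10 kb, namely Cxcl5 with Ppbp, Slfn4 with Slfn3, and Trim30a with Trim30d.

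**Figure D5:**
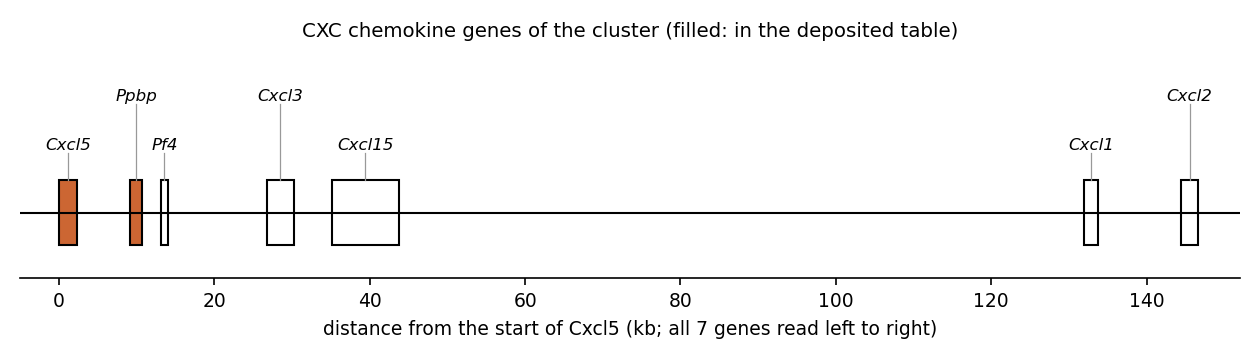
Positions of the 7 CXC chemokine genes of the cluster as distance in kb from the start of Cxcl5 (horizontal axis), with boxes for gene spans, filled where the gene is in the authors' deposited table. The 2 filled genes, Cxcl5 and Ppbp, stand at the left end with Pf4 next to them.

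Of the 3 genes, 2 matched RefSeq's promoter table (GRCm38.p6), namely Ppbp and Ackr1. The table gives 300 bases around each gene's start, and these were searched on both strands for 5 motifs. The motifs were the TATA box, with the letters TATAAA, the AP-1 site, spelled TGANTCA and the same on both strands, the GATA site, read as AGATAA, the C/EBP site, read as TTGCNNAA, and a core of the NF-κB site, read as GGNNTTTCC. The letters for NF-κB were settled after these windows had been seen. No match overlapped a match of another motif. The 250 bases before the start of Ppbp, plus strand, chr5:90768268-90768517, are shown because Ppbp varied together with its neighbour Cxcl5. Capitals mark the matches.
Ppbp: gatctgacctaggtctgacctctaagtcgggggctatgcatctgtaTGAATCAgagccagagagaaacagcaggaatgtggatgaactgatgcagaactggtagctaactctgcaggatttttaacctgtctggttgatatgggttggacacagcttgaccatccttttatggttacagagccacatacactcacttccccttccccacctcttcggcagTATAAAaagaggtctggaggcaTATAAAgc

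The Ppbp sequence holds TATAAA at -30 to -25 and again at -8 to -3 from the start, and a match to the AP-1 motif at -204 to -198. TATAAA occurs in 13.6% and the AP-1 motif in 7.81% of the 32851 promoters of the table. The letters searched for GATA, C/EBP and NF-κB, found in 11.2%, 10.8% and 5.82% of promoters, are not in this window. In the Ackr1 window the single match was to GATA, on the opposite strand at +26 to +31 of the RefSeq start. It is shown with its surroundings, minus strand, chr1:173333461-173333490, because the reverse complement of AGATAA is in capitals there and GATA factors are known from erythroid expression of this receptor.
Ackr1: agccctgggcacTTATCTtggagccacagc

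These matches describe the letters and show no binding.

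Ackr1 (ENSMUSG00000037872) spans 173331886 to 173333750 on chromosome 1 of GRCm38, minus strand, and its annotation overlaps that of a neighbour. Cadm3, a gene for a cell adhesion molecule of the nervous system, lies on the same strand at 173333258 to 173367695, and 361 bases of Ackr1's exons are also annotated as exons of Cadm3. Of the 1153 bases of the main coding transcript, 113 are shared (9.80%), and of the 1122 bases of another coding transcript, 284 are shared (25.3%). Cadm3 is not a listed gene, and no label or header says how reads in shared exons were counted. The low counts of Ackr1 are uncertain to that extent. Cxcl5 and Ppbp overlap no other annotated gene. Of all 50-base stretches of their transcripts, 0.693% for Cxcl5 and 0 for Ppbp also occur in transcripts of another gene. None of those for Cxcl5 was in another chemokine gene.

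The length implied by counts and FPKM can tell which transcript the authors' FPKM refers to. It was 1574 to 1576 bases for Cxcl5, where the coding transcript has 1575 and the transcript with a retained intron 1863. For Ppbp it was 1082 to 1084 against 1083 bases of its single transcript. For Ackr1 it was 1137 to 1155 bases, where the main coding transcript has 1153 and the other coding transcript 1122. The low end lies between these lengths, so the Ackr1 values are not tied to a single transcript. The levels of Cxcl5 and Ppbp in FPKM are thus levels per length of the coding transcript.

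Of 61 chemokine and chemokine receptor genes in 4 lists 4 are in the table (6.56%), where 1.17% of all genes tested are. Cxcl5, Ppbp and Ackr1 are among these 4 because they were taken from the table. The lists were also chosen with earlier results known, and whether all 61 genes were tested is not known. The share is therefore not read as an excess of such genes. Of 15 CXC chemokine genes 2 are listed, Cxcl5 and Ppbp, and of 22 CC, XC and CX3C chemokine genes 0. Of 6 atypical receptor genes 1 is listed, Ackr1, and of 18 signalling chemokine receptor genes 1, Ccr2. Ccr2, the receptor that brings inflammatory monocytes into tissue, stood at 0.27, 0.50 and 0.25 FPKM in the IR replicates and at 1.10, 1.28 and 0.65 FPKM in the TMAO+IR replicates. Its groups did not overlap, and its log2 difference was 1.42 ± 0.45 (SE). Of 20 genes for IL-17, IL-1 and TNF signalling to NF-κB and C/EBP, and of 19 genes for leukocyte rolling, adhesion and transmigration, 0 are listed. Genes outside the table, the CXCL5 and CXCL7 receptor gene Cxcr2 among them, were not analysed here.

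The authors' deposited annotation groups the same genes. Its KEGG chemokine signalling pathway holds 4 listed genes, Cxcl5, Ppbp, Ccr2 and Jak2, and its GO term for neutrophil chemotaxis holds 3, Cxcl5, Ppbp and Pde4b. The only terms there that hold all 3 of Cxcl5, Ppbp and Ackr1 are the inflammatory response, with 12 listed genes, and chemokine-mediated signalling, with 4 (Ccr2 being the fourth). All genes named here under these terms were higher in TMAO+IR, as were 81.9% of all listed genes. Other terms that hold Cxcl5 also hold lower genes. Under cytokine-cytokine receptor interaction, which also holds Ppbp, 9 of 10 listed genes were higher. Under cytokine activity 7 of 8 were higher, and under organ regeneration 3 of 5.

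Markers of cells that could carry these transcripts were looked up beside them. Of 14 platelet and megakaryocyte markers 1 is listed, and it is Ppbp itself. Of 8 venular endothelium markers 1 is listed, which is Ackr1, and of 10 capillary and general endothelium markers 0. The share of platelets or venules in the tissue could therefore not be read from these lists, and its part in the values of Ppbp and Ackr1 was not tested. Of 16 erythroid markers, cells that also carry ACKR1, 1 is listed, the anion exchanger gene Slc4a1. It was lower in TMAO+IR, at 0.30, 0.49 and 0.23 FPKM in the IR replicates and 0.16, 0.09 and 0.08 FPKM in the TMAO+IR replicates, opposite to Ackr1. Slc4a1 had only 13, 9 and 8 counts in the TMAO+IR replicates, and its deposited FDR ranked 148th among the listed genes. The part of red blood cells in the values of Ackr1 was not tested.

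Of 21 neutrophil markers 2 are listed, where 1.17% of all genes tested are, and this list too was chosen with earlier results known. Both were higher in TMAO+IR, as were 81.9% of the listed genes. Mmp8, the neutrophil collagenase gene, stood at 4.33, 6.75 and 3.53 FPKM in the IR replicates and 9.73, 8.89 and 11.66 FPKM in the TMAO+IR replicates. In TMAO+IR replicate 3 Mmp8 was at its highest, where Cxcl5 and Ppbp were at the lowest of their group. Slfn4, a schlafen family gene of myeloid cells, went from 1.17 ± 0.26 to 3.22 ± 0.24 FPKM (SD, n = 3 each). Slfn4 stood at 3.43, 3.27 and 2.95 FPKM in TMAO+IR replicates 1, 2 and 3, lowest in replicate 3 like Cxcl5 and Ppbp. In TMAO+IR replicate 3 the log2 deviation from the group mean was -0.08 for Slfn4 and 0.22 for Mmp8, against -0.33 for Cxcl5 and -0.47 for Ppbp. The summed CPM of Mmp8 and Slfn4 was 11.8 to 21.1 in IR and 33.4 to 39.6 in TMAO+IR. Of 15 monocyte and macrophage markers 2 are listed, Ccr2 and Chil3, a chitinase-like protein gene, with a summed CPM of 2.14 to 3.68 in IR and 5.09 to 11.2 in TMAO+IR. The part of leukocytes in the tissue in the levels of Cxcl5, Ppbp and Ackr1 was not tested. Of the 9 fibroblast markers 0 are listed.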

How the data were processed

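The authors deposited 1 table of 149 genes with whole-number counts per gene and library, without normalization, and FPKM values printed to 2 decimals, per the file headers. Its columns also give the authors' mean FPKM per group, their log2 fold change of these means, and their p-value and FDR. The highest FDR in the table is 0.0487, and none of its genes changed by less than 2-fold. The labels state neither limit. Per the submitters' processing notes, the tools were HISAT2, Bowtie2 2.2.8, StringTie 1.3.1, fastp 0.18.0, edgeR and DESeq2, with GRCm38, and their roles are not given. Columns named T-IR were matched to TMAO+IR, the only group besides IR.

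Library sizes were recovered from count over FPKM in the 86 genes whose FPKM reached 1 in all libraries, scaled by 12 genes with a single transcript in GENCODE M21 (GRCm38), in which all 149 identifiers were found. Counts were divided by these sizes (CPM) and compared as group means of log2(CPM + 0.1). The steps were tested on simulated data in which most genes were unchanged and each kept the same length in all libraries. That setting differs from this table of selected genes, so the test does not show how exact the recovered sizes are here. No test was made, since the table was selected on this difference. The number of genes tested is implied by the FDR and p-value of the top gene. The genes and 14 lists were chosen with earlier results of these data known. Named genes are the 3 members, listed genes of these lists, the 3 nearest profiles of each member and genes of the chromosome 5 cluster. Alternatives were TMM (edgeR 4.0.16), raw counts, FPKM, a pseudocount of 1, arithmetic means, a minimum of 50 counts, pairing and leaving out each library. Python 3.11.15 and R 4.3.3 were used.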

Additional observations from a re-analysis of the deposited data

How the results depend on the processing

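Every alternative kept Cxcl5, Ppbp and Ackr1 higher in TMAO+IR. TMM scaling within the list moved Cxcl5 to 0.11, Ppbp to 0.14 and Ackr1 to 0.28 (log2), and left 46 of 149 listed genes without overlap in place of 145 because it centres a table of selected genes; 111 genes were then higher in place of 122. A pseudocount of 1 CPM moved Ackr1 to 0.81. Leaving out 1 library gave 0.97 to 1.39 for Cxcl5, 0.97 to 1.39 for Ppbp, 1.11 to 1.35 for Ackr1, 122 higher genes each time, and 145 to 149 genes without overlap. For genes whose groups lie apart, leaving out a library cannot change the direction or bring overlap. With the replicate block, the mean differences of same-numbered libraries were the same (1.15, 1.16 and 1.25), with SE of 0.19, 0.10 and 0.18. Across 117 genes, the deviations of libraries with equal numbers correlated at -0.32, 0.34 and -0.076, and no replicate but 2 matched best with its own number. With 3 libraries per group centred on their mean, these correlations depend on each other. They cannot decide whether libraries of equal number are paired. At 20 to 64 counts per library, depth limits Ackr1 most.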

Other observations

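In the authors' deposited annotation, the KEGG IL-17 signalling pathway, through which Cxcl5 is known to be induced, holds 7 listed genes and all were higher in TMAO+IR (122 of the 149 listed genes were higher, 81.9%). They were chosen after their values were seen. Beside Cxcl5 at a log2 difference of 1.15 ± 0.30 (SE), Il6 stood at 1.12 ± 0.13, Jun at 1.21 ± 0.40, Fosl1 at 1.27 ± 0.59, Ptgs2 at 1.36 ± 0.53, Fos at 1.51 ± 0.42 and Hsp90aa1 at 1.79 ± 0.55. Cxcl5 and Il6 thus had the lowest differences of the 7 and the smallest SE. Fos, Jun and Fosl1 encode subunits of AP-1, Ptgs2 encodes cyclooxygenase 2 and Hsp90aa1 a heat shock chaperone.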
